A study of Mus musculus with 2 samples.

Results

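The olfactory receptor genes of mouse chromosome 7 were examined in an ATAC-seq series of blood progenitors. Membership followed the annotation alone: every protein-coding gene of GENCODE M21 on chromosome 7 of mm10 whose symbol is Olfr followed by a digit, which gave 244 of the 21938 protein-coding genes. A further 891 Olfr genes lie on other chromosomes. The series has 1 group: megakaryocyte progenitors, the precursors of the cells that shed platelets, taken as primary cells from C57BL/6J male mice aged 5 to 6 weeks. It holds 2 libraries of 50000 cells, numbered as biological replicates. Both carry the same donor code, and the labels name no separate animals, so the spread between the libraries may be technical. The labels state no genotype change or treatment.

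Olfactory receptors are G protein-coupled receptors that detect odorants in the nasal epithelium, where each sensory neuron chooses a single receptor gene and keeps the others silent. Their genes stand in long tandem clusters, and in tissues outside the nose most of them are packed in heterochromatin, a compact and silent form of chromatin. The class I receptors, the group related to the receptors of fish, form 1 large cluster on mouse chromosome 7, and the beta globin genes, which encode subunits of hemoglobin, lie inside it. ATAC-seq uses a transposase that inserts adapters into accessible DNA, so a listed region marks open chromatin and not transcription.

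The lists that the authors made from both libraries together and from each library alone were used. The conservative list made from both held 80938 regions. The label was checked against marker genes at their promoters: 12 of 16 megakaryocyte markers had an open region at a start in this list, beside 60.2% of all protein-coding genes. Their median signal was 5.94, beside 11.3 for all genes with such a region, and 7 of the 16 had one in replicate 1's own list and 8 in replicate 2's. Gp1ba, a platelet receptor subunit, was the strongest at 13.9, and Gp1bb, Fli1 and Vwf were among those with none. Of the markers of other cells, 5 of 7 erythroid, 3 of 5 granulocyte, 2 of 4 macrophage, 1 of 4 B cell, 1 of 4 T cell, 0 of 3 mast cell and 3 of 8 olfactory neuron genes had one. The part of such cells in the results was not tested. A weakly open region and a region open in few cells cannot be told apart in bulk libraries, and the depth of the libraries is unknown.

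The following 4 sequences stand at the summits of the receptor promoter regions with the highest mean signal in the libraries' own lists. They are read from the plus strand of RefSeq GRCm38.p6, the assembly of mm10, 5′ to 3′, with 75 bp on each side of the summit. For Olfr658 only the bases upstream of the annotated gene are shown. They lie at chr7:104647306-104647393 (Olfr658), chr7:104104022-104104172 (Olfr646), chr7:102695490-102695640 (Olfr557) and chr7:103971922-103972072 (Olfr635). Capitals mark matches to the motifs listed further on.
Olfr658: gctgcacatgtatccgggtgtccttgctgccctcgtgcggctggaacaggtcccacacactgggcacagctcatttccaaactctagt
Olfr646: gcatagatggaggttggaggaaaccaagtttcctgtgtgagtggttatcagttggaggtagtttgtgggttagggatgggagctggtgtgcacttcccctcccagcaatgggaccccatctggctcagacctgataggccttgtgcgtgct
Olfr557: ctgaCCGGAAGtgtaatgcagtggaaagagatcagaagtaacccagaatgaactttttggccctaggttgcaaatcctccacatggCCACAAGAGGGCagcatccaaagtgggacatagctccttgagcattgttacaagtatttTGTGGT
Olfr635: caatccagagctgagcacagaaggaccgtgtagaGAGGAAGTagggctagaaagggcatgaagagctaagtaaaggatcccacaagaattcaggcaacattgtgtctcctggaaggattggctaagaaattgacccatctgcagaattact
In the Olfr557 sequence the capitals are an ETS motif, a match to the core consensus of CTCF, a protein that binds insulators and loop anchors, and a RUNX motif. The capitals in the Olfr635 sequence are a PU.1 motif, while the printed bases of Olfr658 and Olfr646 hold none of the motifs searched.

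The next 4 sequences are shown because they stand at the strongest regions inside the receptor clusters that are not at a receptor promoter. They lie at chr7:103942870-103943020 (1.49 kb from the 5′ end of Olfr633), chr7:105256795-105256945 (31.2 kb from Olfr688), chr7:102506968-102507118 (7.47 kb from Olfr545) and chr7:104603282-104603432 (1.58 kb from Olfr655). All are intergenic. A region over an exon of Olfr695 ranked second among them, and its sequence is not printed.
near Olfr633: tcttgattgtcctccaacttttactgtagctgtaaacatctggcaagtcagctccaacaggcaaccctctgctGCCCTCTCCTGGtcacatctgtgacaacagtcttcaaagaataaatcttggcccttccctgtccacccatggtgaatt
near Olfr688: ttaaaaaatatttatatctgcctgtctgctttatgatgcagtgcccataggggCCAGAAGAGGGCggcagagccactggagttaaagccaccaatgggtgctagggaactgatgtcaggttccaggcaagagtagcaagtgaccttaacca
near Olfr545: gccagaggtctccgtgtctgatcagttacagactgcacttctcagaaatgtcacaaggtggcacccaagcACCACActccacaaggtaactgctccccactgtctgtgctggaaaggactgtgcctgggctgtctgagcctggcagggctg
near Olfr655: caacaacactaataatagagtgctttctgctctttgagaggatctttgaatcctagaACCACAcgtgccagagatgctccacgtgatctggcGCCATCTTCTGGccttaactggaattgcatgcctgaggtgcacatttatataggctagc
In 3 of these 4 sequences the capitals hold a match to the CTCF core consensus, and the sequences near Olfr545 and Olfr655 hold a RUNX motif.

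Few of the receptor genes had open chromatin at a start. A promoter region, meaning a region of the conservative list with a summit within 1 kb of the start of a protein-coding transcript, was present at 13 of the 244 genes (5.33%), against 60.2% of all protein-coding genes in the same list. Among the 1779 other genes of chromosome 7 the share was 57.6%. Among the 891 Olfr genes of other chromosomes it was 2.24% (20 genes). The 2 large families of vomeronasal receptors, which detect pheromones, had 1 of 209 (Vmn1r) and 0 of 122 (Vmn2r). Genes are not replicates and the series has 1 group, so these shares are descriptions without a test.

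Replicate 1's own list gave a promoter region to 11 receptor genes, where it gave one to 57.1% of all genes. Replicate 2's own list also gave 11, against 56.4% of all genes. Of the 13 genes in the conservative list, 10 had a promoter region in both libraries' own lists. The single receptor gene with a promoter region in a library's own list but not in the conservative list was Olfr1532-ps1, at a signal of 6.85 in replicate 1. The more inclusive replicated list gave 27 receptor genes, all 13 of the conservative list among them, against 68.1% of all genes.

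**Figure D1:**
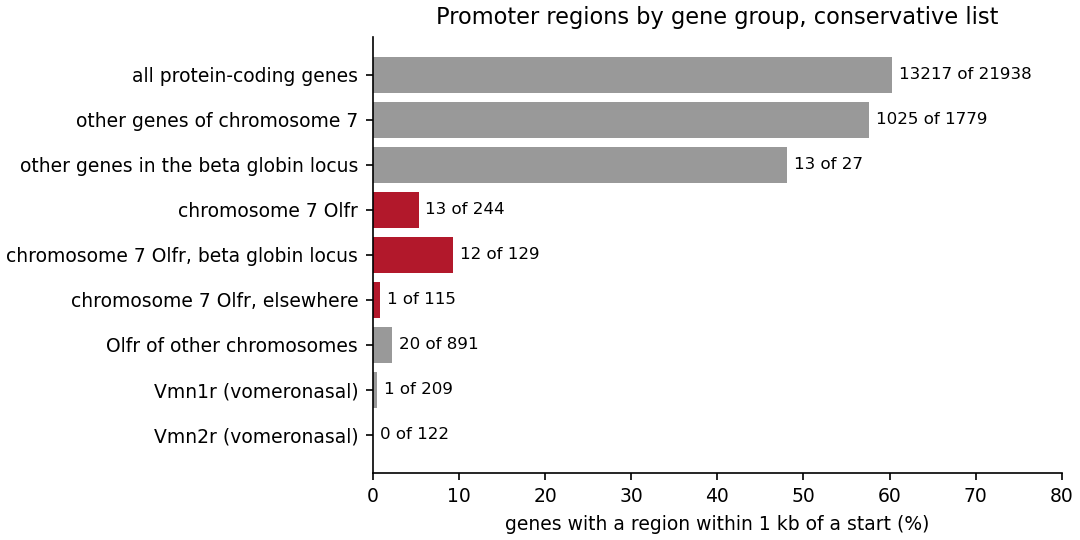
Share of genes with a promoter region in the conservative list (x axis, percent) for 9 gene groups, with the number of genes beside each bar; red bars are the chromosome 7 olfactory receptor genes. The bar for all 244 receptor genes stands at 5.33% and the bar for all protein-coding genes at 60.2%.

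The open receptor genes were unevenly placed. The genes were split into 8 loci at gaps over 500 kb. The locus that contains the beta globin genes, from Olfr543 to Olfr692 (chr7:102476579-105369355), holds 129 receptor genes. Of these, 12 had a promoter region (9.30%). Of the 115 receptor genes elsewhere on the chromosome 1 had one (0.870%), Olfr469. In the same order the replicated list gave 20 and 7 genes. Of the 27 other protein-coding genes inside the beta globin locus 13 had a promoter region (48.1%), beside 60.2% of all protein-coding genes. Open promoters of other families thus stand between the receptor genes.

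The 2 strongest receptor promoters had signals high among those of all genes. Signal is the value that the authors' peak caller gave a region, and no scaling between the lists is stated, so values are compared within a list. Olfr658 (ENSMUSG00000070421.4, chr7:104642877-104647305) carried a signal of 18.9 in replicate 1 and 20.1 in replicate 2 (mean 19.5 ± 0.825, SD, n = 2). In the conservative list its region, chr7:104646922-104647672, had a signal of 21.4 and ranked 91 among the 13217 genes with a promoter region. Its summit stood 13 bp upstream of the start. Olfr646 (ENSMUSG00000073931.3, chr7:104104873-104109766) carried 19.3 in replicate 1 and 18.8 in replicate 2 (mean 19.0 ± 0.389, SD, n = 2). Its region, chr7:104103829-104104521, had a conservative signal of 20.99 and rank 120, with the summit 776 bp upstream of the start. The spans of these 2 genes over the libraries, 18.9 to 20.1 and 18.8 to 19.3, overlapped, so their order is not fixed.

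Olfr557 (ENSMUSG00000073967.3, chr7:102695910-102700707) carried 15.0 in replicate 1 and 16.5 in replicate 2 (mean 15.7 ± 1.03, SD, n = 2). Its region, chr7:102695426-102695856, had a conservative signal of 18.5, and the summit stood 345 bp upstream of the start. Olfr635 (ENSMUSG00000094520.4, chr7:103971152-103987540) carried 13.7 in replicate 1 and 13.1 in replicate 2 (mean 13.4 ± 0.393, SD, n = 2). Both libraries placed these genes below Olfr658 and Olfr646 and above every other receptor promoter, Olfr557 above Olfr635.

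The remaining receptor promoters formed a lower group. Olfr469 carried 11.1 and 10.4 in replicates 1 and 2 (mean 10.7 ± 0.476, SD, n = 2). Olfr593 carried 9.75 and 10.1 (mean 9.92 ± 0.240, SD, n = 2). Olfr638 carried 9.49 and 9.45 (mean 9.47 ± 0.0249, SD, n = 2). These 3 genes stood within 2 signal units of one another in each library. Olfr552 carried 8.93 and 9.63 (mean 9.28 ± 0.498, SD, n = 2). Olfr640 carried 8.99 and 9.21 (mean 9.10 ± 0.153, SD, n = 2), and Olfr642 carried 8.87 and 9.01 (mean 8.94 ± 0.104, SD, n = 2). The values of Olfr552, Olfr640 and Olfr642 overlapped over the libraries. Olfr548-ps1, a member whose symbol marks it as a pseudogene although the annotation calls it protein-coding, was listed by replicate 2 alone, at 11.0. Olfr545 and Olfr572 had conservative signals of 9.72 and 6.92 and a promoter region in neither library's own thresholded list. All 13 were present in the pseudoreplicated list of each library, the less strict list that the authors made by splitting a library's reads.

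The median conservative signal of the 13 receptor promoters was 11.7, beside 11.3 for all genes with a promoter region. In the libraries' own lists the 10 shared receptor promoters had medians of 10.4 in replicate 1 and 10.2 in replicate 2. Replicate 2 was the higher in 6 of the 10. On the log2 scale replicate 2 exceeded replicate 1 by a median of 0.03 at these promoters (SD 0.07 over 10 regions) and of 0.08 over all regions in both lists.

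**Figure D2:**
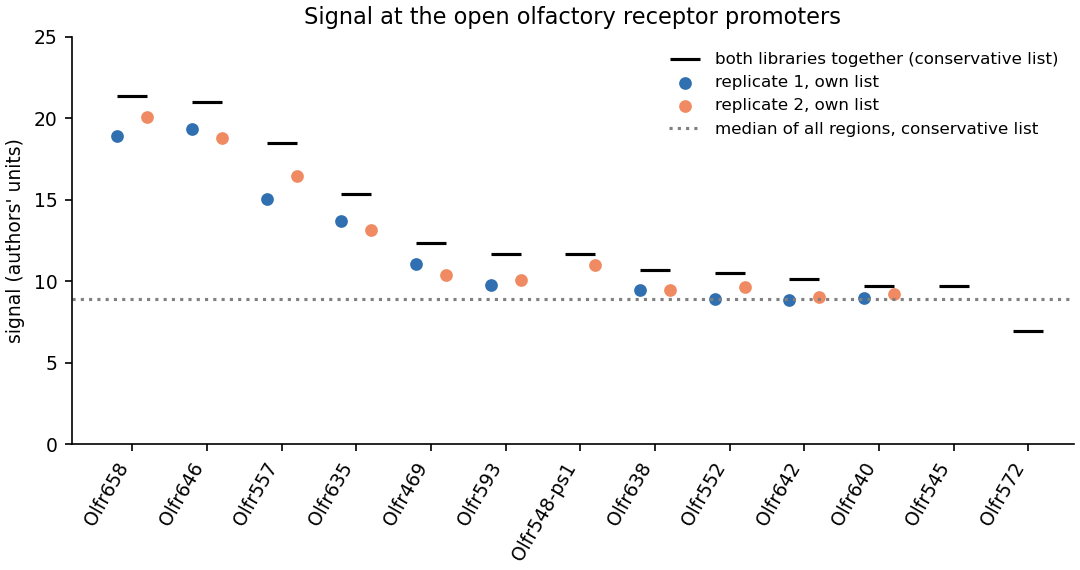
Signal (y axis, authors' units) at the promoter regions of the 13 open olfactory receptor genes, ordered by the conservative list; bars mark the conservative list, blue and orange points the libraries' own lists, and the dotted line the median of all regions. Olfr658, Olfr646, Olfr557 and Olfr635 stand above the rest, and 3 genes lack 1 or both points.

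The promoter regions did not all stand upstream of the genes. Olfactory receptor genes usually carry their coding sequence in a single exon, and upstream noncoding exons make up the rest of the gene. The summit lay upstream of the annotated gene for 4 members, Olfr658, Olfr646, Olfr557 and Olfr552. It lay in an intron for 5, Olfr635, Olfr469, Olfr548-ps1, Olfr638 and Olfr572, and in a noncoding exon for Olfr642. For Olfr593, Olfr640 and Olfr545 it lay over the coding exon, 386 bp, 177 bp and 159 bp past the first coding base. The region at Olfr593, chr7:103211979-103212673, lay with all of its 695 bp inside the coding span. So did the regions at Olfr640 (771 bp) and Olfr545 (430 bp). Only 6 of the 13 regions were assigned through the 5′ end of the gene record. The other 7 were assigned through a second annotated start inside it, and with the gene record's 5′ end as the sole start 8 receptor genes counted, against 56.7% of all genes.

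The count also moved with the window. With a window of 0.5 kb 8 receptor genes had a promoter region, and with 2 kb 25 had one, while the share of all genes went from 58.1% to 63.5%. The counted members closest to the 1 kb limit were Olfr646 at 776 bp and Olfr635 at 845 bp. Those just outside were Olfr648 at 1122 bp with a signal of 8.90, Olfr649 at 1271 bp with 9.23 and Olfr524 at 1276 bp with 4.68. Some of the strongest regions of the clusters fell a little farther out: that near Olfr67 at 1375 bp (19.95), that near Olfr633 at 1492 bp (21.3), that near Olfr554 at 1556 bp (15.5) and that near Olfr655 at 1578 bp (17.2).

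One open receptor shared its sequence with a neighbour. In the 151 bp around the Olfr545 summit 6.67% of the 32-base words occur once in the genome, while in the windows of the other 12 receptor promoters at least 94.2% do. The matching copy lies at chr7:102484892-102485027, in an exon of Olfr544, and is itself covered by a region with a signal of 6.90. How the authors placed reads with several matches is not given in the sources used here, so the signals of Olfr545 and Olfr544 are uncertain.

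Around the receptor genes, 119 of the 80938 regions had their strongest summit within 50 kb of the 5′ end of at least 1 member. Promoters of receptor genes made up 13 of them and promoters of other protein-coding genes 20. A further 14 lay in exons, 14 in introns and 58 (48.7%) between genes. Their median conservative signal was 9.47, beside 8.90 for all regions. The receptor promoters were narrower than the promoters of other genes in the same windows, with median widths of 458 and 824 bp.

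Both libraries' own lists held 82 of the 119 regions (68.9%, Wilson 95% interval 60.1 to 76.5%, which covers counting error only), beside 63.9% of all regions. Neither own list held 20 of them (16.8%), beside 18.9% of all regions. Over the 82 shared regions the median signal was 9.74 in replicate 1 and 10.4 in replicate 2 (mean 10.1 ± 0.477, SD, n = 2), beside 9.59 and 10.1 over all shared regions. Replicate 2 was the higher in 53 of the 82 and in 35607 of the 51738 over all regions, a difference between lists whose relative scale is not stated.

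The regions were sparse over the receptor clusters. Runs of receptor genes, with no other protein-coding gene between their 5′ ends and under 250 kb from one to the next, numbered 19 and covered 4.70 Mb. They held 51 regions, or 10.8 per Mb, beside 29.7 per Mb over the 21 chromosomes. These densities are unlike: a run breaks at the 5′ end of another protein-coding gene, while the value over the chromosomes includes all promoters. The union of the 50 kb windows held 19.7 per Mb, and chromosome 7 beyond them 35.1 per Mb. The windows around Olfr genes of other chromosomes held 14.4 per Mb. The runs of the beta globin locus held 17.6 per Mb and those elsewhere 5.65 per Mb. The whole of the beta globin locus, with the other genes between its runs, held 28.3 per Mb. Replicate 1's list gave 8.50 per Mb in the runs and replicate 2's 7.86, and the conservative list's density there was larger than either.

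A receptor gene was also far from the nearest region. The median distance from a receptor's 5′ end to the nearest summit was 55.4 kb, beside 0.217 kb for all protein-coding genes. In the beta globin locus it was 28.9 kb and elsewhere on the chromosome 120 kb, close to the 114 kb of Olfr genes on other chromosomes. No region lay within 50 kb of 129 of the 244 genes. These were 47 of the 129 genes in the beta globin locus (36.4%) and 82 of the 115 elsewhere (71.3%). The same held for 14.5% of all protein-coding genes and for 69.2% of the Olfr genes on other chromosomes.

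**Figure D3:**
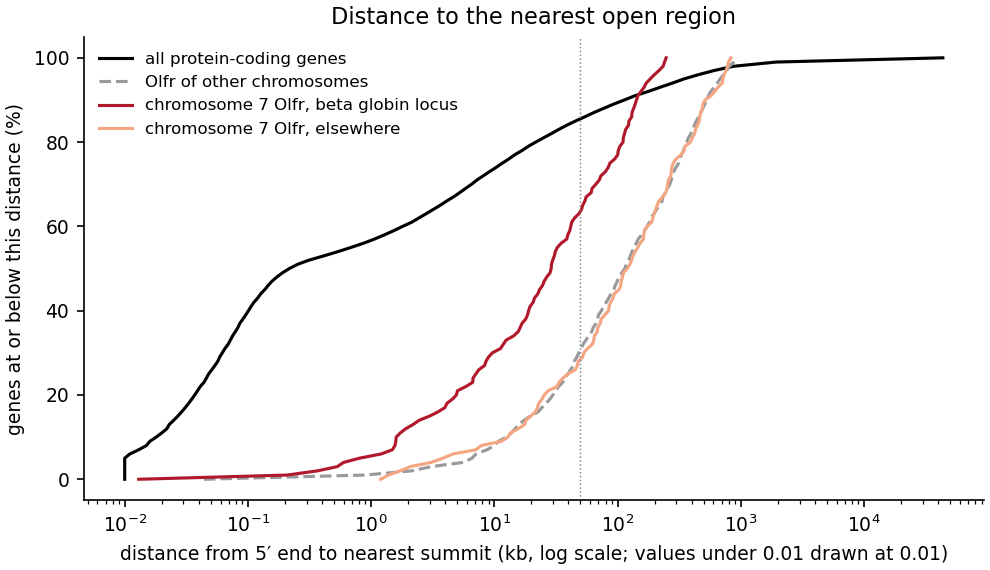
Cumulative share of genes (y axis, percent) by distance from the 5′ end to the nearest summit of the conservative list (x axis, kb, log scale), with a dotted line at 50 kb. The curve of the receptor genes in the beta globin locus, with a median of 28.9 kb, stands between that of all genes and those of the other receptor genes.

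The longest region-free stretches among those with a receptor gene held many members each. Between chr7:84805575 and 87110643 no region was listed over 2305 kb, the rank 5 stretch among the 5012 between neighbouring regions of the chromosome. It held 18 receptor genes, from Olfr291 to Olfr292, and 16 other genes. The next of these, rank 19 and 990 kb long, from chr7:107824487 to 108814875, held 36 receptor genes from Olfr469 to Olfr513 and no other protein-coding gene. Genes were placed by the 5′ end, so the open Olfr469 is counted here, although its promoter region borders the stretch. The third, rank 33 and 557 kb long, held 16 receptor genes from Olfr525 to Olfr541 and 3 others, and the fourth, rank 39 and 499 kb long, held 27 from Olfr594 to Olfr625-ps1 and 2 others. Together these 4 stretches held the 5′ ends of 97 of the 244 members. None of them contains undetermined bases in the assembly. Across the chromosome the median stretch was 7.95 kb.

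At the other end of the range, Olfr649 had 14 regions within 50 kb, Olfr64 and Olfr65 had 12 each, and Olfr66 and Olfr648 had 11 each. None of these 5 had a promoter region. Olfr64, Olfr65 and Olfr66 stand beside the beta globin genes, and Olfr648 and Olfr649 stand beside Trim6. The 13 open receptors had a median of 4 regions within 50 kb, their own promoter regions included, and ranged from 1 to 8.

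**Figure D4:**
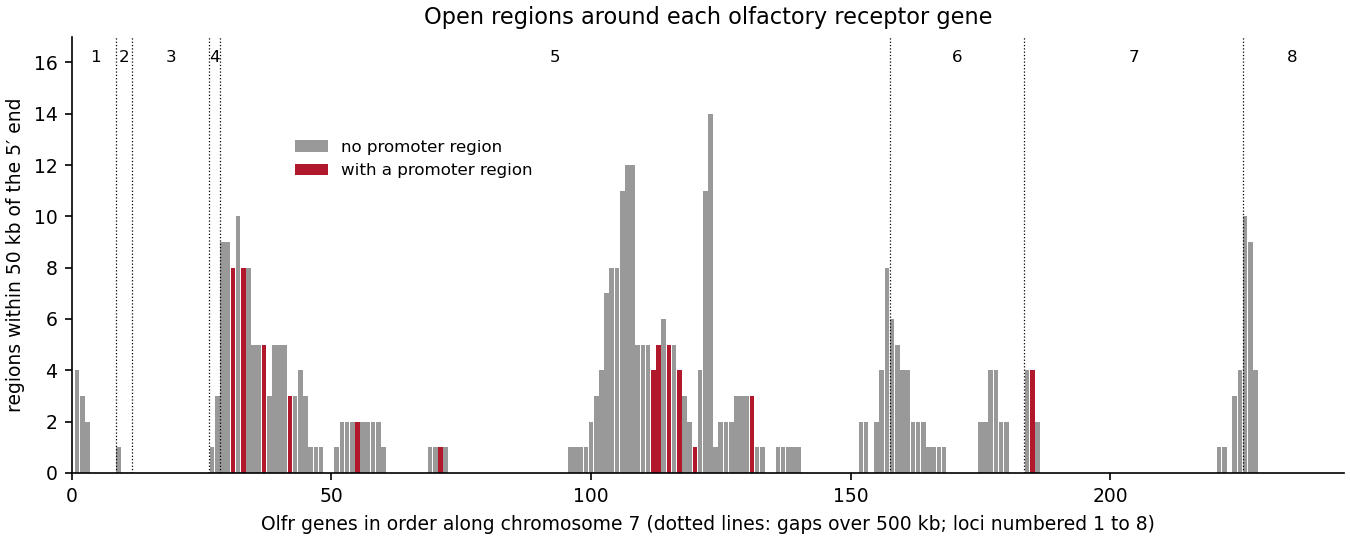
Number of conservative-list regions within 50 kb of the 5′ end (y axis) of each of the 244 receptor genes in their order along chromosome 7 (x axis), with red bars for the 13 genes with a promoter region and dotted lines at gaps over 500 kb. The bars rise to 14 in the beta globin locus (locus 5), and in locus 3 every gene stands at 0.

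The beta globin locus was read from its first receptor to its last. Its first run, the 6 genes from Olfr543 to Olfr549 between Rrm1 and Trim21, held 8 regions over 79.3 kb. Its strongest, chr7:102506882-102507234, carried 14.9 and 17.9 in replicates 1 and 2 and lies 7.47 kb from Olfr545. Rrm1, a subunit of ribonucleotide reductase, was open at a signal of 13.5 and Trim21, an antibody receptor of the cytosol, at 17.5. The second run, the 7 genes from Olfr550 to Olfr556, included the open Olfr552, and its strongest region inside, chr7:102636646-102637032, carried 13.2 and 13.5 and lies 1.56 kb from Olfr554. Trim68 follows it, open at 19.3.

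The receptor genes from there to the globin genes were mostly without open chromatin. The 31 genes from Olfr557 to Olfr594, over 526 kb, included 3 open ones, Olfr557, Olfr572 and Olfr593. Within 50 kb of them the strongest region was the Trim68 promoter, 8.59 kb from the 5′ end of Olfr557, and inside the run it was chr7:102919698-102919967, with 12.4 and 15.9 in replicates 1 and 2. The 7 genes from Olfr596 to Olfr603, between Usp17ld and Usp17lc, had no region within 50 kb. The 26 genes from Olfr605 to Olfr67 had no promoter region and 2 regions inside their 351 kb, and their strongest region within 50 kb was chr7:103792809-103793423, with 18.1 and 17.5, which lies 1.38 kb from Olfr67 on the side of the globin genes.

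The globin genes had weaker promoter regions than the strongest receptor regions on either side. Hbb-bs was open at a signal of 9.24 and Hbb-bt at 3.96, both adult beta globins. Of the sequence words around the Hbb-bt summit, counted as for Olfr545, 0% occur once in the genome, so its signal is uncertain. Around the Hbb-bs summit 100% do. Hbb-y, Hbb-bh1 and Hbb-bh2, the embryonic and related members, had no promoter region. On the other side, the 12 genes from Olfr66 to Olfr642 held 10 regions over 173 kb, with 4 open promoters, Olfr635, Olfr638, Olfr640 and Olfr642, close to one another: the 5′ end of each lay 26.8 to 27.6 kb from that of the nearest other. Their strongest region, chr7:103942798-103943103, carried 19.0 and 17.6 (mean 18.3 ± 0.966, SD, n = 2) and lies 1.49 kb from Olfr633.

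Beyond them, the run of 3 genes from Olfr644 to Olfr646 held the Olfr646 promoter as its single region. The gene record of Olfr643 spans 139 kb across these neighbours and has no protein-coding transcript start, so it could not have a promoter region under the rule. Olfr648 and Olfr649 had 14 regions within 50 kb. The strongest of them, chr7:104205938-104206799, carried 17.5 and 20.2 and lies 10.4 kb from Olfr649. The 10 genes from Olfr651 to Olfr661, beside the open Trim30d (21.2), held 3 regions, of which the Olfr658 promoter was the strongest. The 24 genes from Olfr665 to Olfr692, over 491 kb, held 3 regions and no open promoter. Their strongest region, chr7:105256746-105257003, carried 15.3 and 16.2 in replicates 1 and 2 and lies 31.2 kb from Olfr688.

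**Figure D5:**
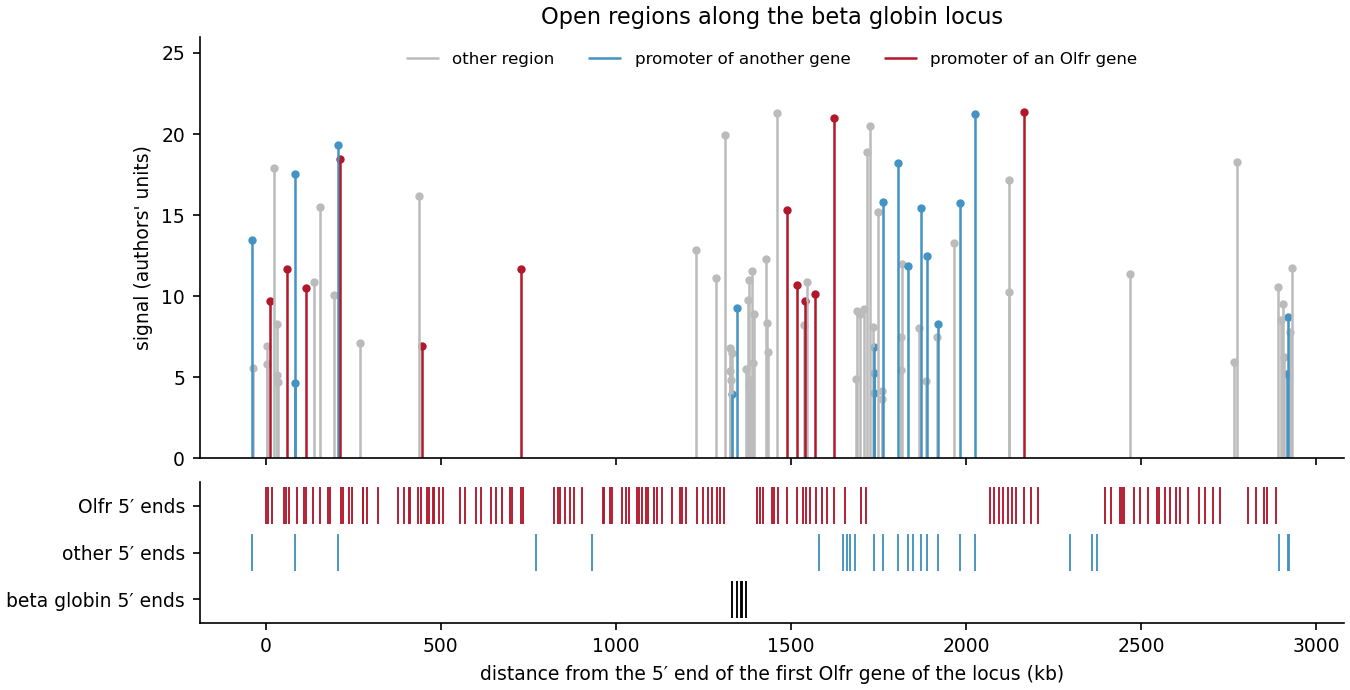
Regions of the conservative list along the beta globin locus: signal (y axis, authors' units) against distance from the 5′ end of Olfr543 (x axis, kb), with red for receptor promoters, blue for promoters of other genes and grey for other regions; the lower panel marks gene 5′ ends. The 12 receptor promoters stand from 12.9 to 2166 kb, and long stretches of receptor genes have none.

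Outside that locus the receptor clusters differed among themselves in the regions they held. The 26 genes from Olfr693 to Olfr716, between Gvin1 and Nlrp14, held 9 regions over 476 kb, or 18.9 per Mb, yet no promoter region. Their strongest, chr7:106711480-106711818 over an exon of Olfr695, carried 16.5 and 18.8 (mean 17.7 ± 1.64, SD, n = 2). Another lay over an exon of Olfr2, chr7:107000803-107001404, with 13.4 and 13.7. The 42 genes from Olfr467 to Olfr519, the longest run at 1082 kb, held 3 regions, or 2.77 per Mb. Their single open promoter was that of Olfr469, chr7:107823928-107824486, and the strongest region within 50 kb was the promoter of Eif3f (12.9), a translation factor subunit.

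Other clusters held nothing inside. The 15 genes from Olfr310 to Olfr292, between Vmn2r76 and Folh1, and the 16 from Olfr525 to Olfr541, between 5830411N06Rik and Cyp2e1, had no region within 50 kb. The 8 genes from Olfr1344 to Olfr1350 held none inside but had 4 within 50 kb. One of these, in an intron of Smim17 at chr7:6409914-6410551, was the strongest of all 119, with 21.7 and 22.9 (mean 22.3 ± 0.850, SD, n = 2), and lies 28.4 kb from Olfr1344. The run of Olfr291 to Olfr290 had 1 region within 50 kb and the pair Olfr520 and Olfr521 had 4. The 3 genes from Olfr522 to Olfr524 held 3 regions and had 10 within 50 kb, the strongest at the promoter of Paox (13.4), a polyamine oxidase.

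Genes of other families in the beta globin locus were open more often than the receptors beside them. Among its 22 genes that are neither receptors nor globins, 11 had a promoter region in the conservative list, and all 11 are Trim genes, which encode RING finger proteins with roles in antiviral defence. Their signals ran from 6.85 (Trim6) to 21.2 (Trim30d), with Trim68 at 19.3 and Trim5 at 18.2. Each was present in both libraries' own lists. Of the sequence words around the Trim30d summit, counted as for Olfr545, 27.5% occur once in the genome, so its signal is uncertain. Trim34b, the Usp17l genes (deubiquitinases) and the Ubqln genes (ubiquilins) had none.

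In the median the open receptors stood nearer to genes of other families and to one another. Within the beta globin locus, the median distance to the nearest protein-coding gene that is not a receptor was 38.3 kb for the 12 open receptors and 81.1 kb for the 117 others. The ranges overlapped, from 8.58 to 237 kb and from 5.87 to 277 kb. The median distance to the nearest other open receptor was 46.8 kb (range 26.8 to 542 kb) against 112 kb (range 5.13 to 721 kb), which also overlapped. Of the 12, 8 lie on the plus strand, as do 57 of the 117.

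The DNA around the receptors was poor in G, C and CpG. In windows of 1 kb on each side of the 5′ end the median GC content was 38.0% over the 244 genes, beside 51.2% over all protein-coding genes. The ratio of observed to expected CpG, which is high in the CpG islands of broadly expressed genes, had a median of 0.103, beside 0.474. The share of bases masked as repeats was 20.5% beside 14.0%. Among the receptors, the 13 open genes had a median GC of 41.7% (quartiles 39.4 and 44.8%) and the 231 others 37.6% (quartiles 35.3 and 40.5%). Their CpG ratios were 0.123 and 0.102. Only 8 of the 13 have a region within 1 kb of that 5′ end. In the 151 bp around the summits of the 13 receptor promoter regions the median GC was 45.7% and the CpG ratio 0.160, beside 51.7% and 0.262 over all regions. In the windows around the 5′ ends, a median of 95.6% of 32-base words occur once in the genome, beside 98.5% for all genes. There the open receptors, at 92.8%, were not above the closed ones, at 96.0%. Whether GC content, repeats or uniqueness of the sequence had a part in the listing of regions was not tested.

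Motifs were searched in the 151 bp around each region's strongest summit, on both strands, where N is any base. The shares are given for the 51 regions inside the receptor runs and then for all 80938 regions. AGATAA, bound by GATA factors of erythroid and megakaryocyte cells, was present in 15.7% and 11.9%. The CTCF core consensus was present in 15.7% (8 regions) and 11.9%. TGTGGT, bound by RUNX factors, was present in 19.6% and 19.8%, and TGANTCA, bound by AP-1 and NFE2, in 7.84% and 7.04%. GAGGAAGT, bound by PU.1, was present in 7.84% and 6.71%.

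Other motifs were not matched in the receptor runs. CCGGAAG (ETS), GGGCGGG (KLF and SP) and TCCCNNGGG (EBF) were present in none of the 51 regions, beside 3.54%, 9.29% and 2.36% of all regions, and TAATTA (LHX) in none, beside 1.67%. EBF and LHX factors bind receptor promoters and enhancers in olfactory neurons. At these counts a share of a few percent would rest on 1 or 2 regions. The 51 regions leave out the Olfr557 promoter region, whose summit lies upstream of the first gene of its run. Of the 13 receptor promoter regions, 3 held GAGGAAGT (Olfr635, Olfr642 and Olfr469), 2 held TGANTCA (Olfr552 and Olfr593), 2 held TGTGGT (Olfr557 and Olfr642), and 1 each held AGATAA (Olfr469), CCGGAAG (Olfr557) and the CTCF core (Olfr557). The motifs overlap one another in part, as GAGGAAGT and CCGGAAG share the letters GGAAG. A match is a run of letters and not a bound site.

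Genes that serve the receptors in olfactory neurons had promoter regions at a share near that of all genes. Of 20 genes of odorant signal transduction and receptor trafficking, 13 had a promoter region in the conservative list (65.0%), beside 60.2% of all genes. In the own lists of replicates 1 and 2, 11 and 10 of the 20 had one, against 57.1% and 56.4% of all genes. Adcy3, the adenylyl cyclase of the odour response, carried 9.11 and 9.18 in replicates 1 and 2. Omp, the marker protein of mature olfactory neurons, was listed at 5.93 in the conservative list and in neither library's own list, and Gnal, the G protein alpha subunit of the pathway, at 6.43 likewise. The channel subunits Cnga2 and Cnga4 and the receptor chaperones Rtp1 and Rtp2 had no promoter region.

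Of 18 genes that act in receptor gene choice or in the heterochromatin of receptor clusters, 16 had a promoter region (88.9%), beside 60.2% of all protein-coding genes. Setdb1, a histone H3 lysine methyltransferase, carried 17.1 and 17.4 in replicates 1 and 2. Kdm1a, the lysine demethylase LSD1, carried 13.7 and 15.7. Lbr, the lamin B receptor, which tethers heterochromatin to the nuclear envelope, carried 9.72 and 11.2. Among the transcription factors of receptor choice, Lhx2 carried 8.20 and 9.92, Ebf1, which also acts in B cells, 11.7 and 13.1, and Ebf2 11.4 and 13.6. Ebf4 and Emx2 had no promoter region.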

How the data were processed

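ATAC-seq peak lists of 2 libraries of megakaryocyte progenitors were used. Per the labels, coordinates are mm10. The lists are narrowPeak files in which each line is a summit. The signal values and the -log10 p values (at least 2.22 for every region of the conservative list) were deposited by the authors, who made lists by the irreproducible discovery rate (IDR) and, less strictly, by pseudoreplicates, per the deposited file descriptions. Which aligner and peak caller were used, and how duplicate or multiply matching reads and the transposase offset were treated, is not given in the sources used here; each could move how many regions are listed. No tracks or alignments entered, so depth per library is unknown.

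Overlapping summit intervals were merged into regions, and the strongest summit gave a region its signal. Coordinates are 1-based. GENCODE M21 gave 21938 protein-coding genes on the 21 chromosomes used, with 54361 starts of protein-coding transcripts. The symbol Olfr290 belongs to 2 gene records, each counted. A promoter region had a summit within 1 kb of such a start. Distal counts used the gene record's 5′ end and the strongest summit, each region once. Regions were shared where at least 50% of either was covered. Location was taken in the order promoter, exon, intron, intergenic. Intervals are Wilson at 95%. No test was made, with 1 group of 2 libraries. The scripts (Python 3.11.15, pandas 2.3.3, numpy 2.4.6, scipy 1.17.1, numba 0.67.0) were tested on simulated data.

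The genes, lists, motifs and alternatives were chosen with earlier results of these data known. Named were every receptor gene with a promoter region, those with one only in a library's own list, the strongest region near each cluster of 10 or more genes, the ends of each cluster, and the 5 genes with most regions. Alternatives were other lists, stronger regions, other windows, start definitions, cluster rules and overlap rules. Counting starts of all transcript types was added after seeing the data. One marker gene is not reported here by name.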

Additional observations from a re-analysis of the deposited data

How the results depend on the processing

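The count of 13 receptor genes with a promoter region was 15 in the IDR-thresholded list and 12 among the stronger 50% of regions. The share of all genes, 60.2% in the conservative list, was 60.2% and 43.8% there. The receptor count was 27 in the replicated and 23 in the pseudoreplicated list, against 68.1% and 67.6% of all genes. It was 8 with a window of 0.5 kb, 25 with 2 kb and 8 with the 5′ end of the gene record only. In these settings the share of all genes was 58.1%, 63.5% and 56.7%. The receptor count ranged from 11 to 11 when either library was left out, against 56.4% to 57.1% of all genes. It was 13 with the starts of all transcript types, an alternative chosen after seeing the data, against 62.1% of all genes. The 119 regions within 50 kb became 175 in the replicated list, 168 in the pseudoreplicated list, 156 with a window of 100 kb, 74 with 20 kb and 66 among the stronger 50% of regions, and ranged from 91 to 95 without 1 library. The density of 10.8 regions per Mb in receptor clusters became 18.1 in the replicated list, 16.6 in the pseudoreplicated list and 17.3 where clusters were broken only by gaps over 500 kb, which adds the other genes between them, and ranged from 7.86 to 8.50 without 1 library. The median signal of 10.1 was 9.19 as the mean over summits and ranged from 9.74 to 10.4 without 1 library. The 68.9% of regions in both libraries became 97.5% with each library's pseudoreplicated list. The median distance of 55.4 kb became 34.3 kb in the replicated list, 37.0 kb in the pseudoreplicated list and 64.2 kb among the stronger 50% of regions, and ranged from 56.0 to 63.9 kb without 1 library. The median over all genes, 0.217 kb in the conservative list, moved as well. In the same order it was 0.137, 0.138 and 5.53 kb, and it ranged from 0.43 to 0.523 kb without 1 library. The replicated and pseudoreplicated lists hold more regions and the stronger 50% fewer; beyond that the cause was not tested. No paired analysis was possible because the series has 1 group. Depth is unknown, so whether deeper libraries would list more receptor promoters was not tested.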

Other observations

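The 20 open Olfr genes of other chromosomes were spread unevenly. Chromosome 1 held 5 of its 27 Olfr genes with a promoter region (18.5%): Olfr414, Olfr417, Olfr420, Olfr432 and Olfr433. Chromosome 14 held 3 of 40, Olfr1509, Olfr1510 and Olfr1511, which are numbered in a row. Chromosome 2, with 294 Olfr genes, held 1, Olfr1033 (0.340%), and chromosome 9, with 132, held 1, Olfr229. Their median signal was 11.0, beside 11.7 for the 13 of chromosome 7. Among other chemosensory families, 2 of 15 trace amine receptors (Taar), 1 of 35 bitter taste receptors (Tas2r), 1 of 3 sweet and umami taste receptors (Tas1r) and 0 of 7 formyl peptide receptors (Fpr), which also serve blood phagocytes, had a promoter region. The median distance from a Taar gene to the nearest summit was 6.86 kb, and that of a Vmn1r gene was 210 kb.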
